A study of Mus musculus with 8 samples.

Results

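The genes described here are those of the retinoic acid receptors and of retinoid handling in the ocular lens fiber cells (FC) of the mouse, 9 genes in all of the 35275 listed. They are the 3 retinoic acid receptors Rara, Rarb and Rarg, the 3 retinoid X receptors Rxra, Rxrb and Rxrg, the binding proteins Crabp1 and Crabp2, and the retinol dehydrogenase Rdh10. Rarb was chosen because it was higher in all 4 libraries of mice exposed to cigarette smoke (CS), and the others because they are its family members and partners. The difference of Rarb between the groups is therefore a description, given without a test.

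RNA of lens FC was sequenced in 8 libraries, 4 from C57BL/6 mice (C57BL/6J in the study's methods) exposed to CS and 4 from age-matched, untreated control (Ct) mice of the same strain. The CS-exposed pups were born in a whole-body smoke chamber within days of their mothers being placed there and were kept in smoke for 5 hours a day on 5 days a week over 3.5 months. The untreated Ct mice stayed in the animal facility. No gene was modified in either group, each library is a pool of the right lenses of 4 mice, and the FC were freed of the lens epithelium under a microscope, so the values are averages over pooled animals and over all cells left in the dissected tissue. The study's methods describe 2 male and 2 female pools in each group, the labels do not say which library is which, and sex is not a term of the comparison.

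Retinoic acid is made from vitamin A (retinol) in a pair of oxidation steps, the first by retinol dehydrogenases such as RDH10 and the second by retinaldehyde dehydrogenases. In the nucleus it binds a retinoic acid receptor (RAR), which sits on DNA together with a retinoid X receptor (RXR), and the pair turns from holding corepressors to holding coactivators. The pair recognizes a repeated 6-base element, often with 5 bases between the copies. CRABP1 and CRABP2 carry retinoic acid in the cytosol, and enzymes of the CYP26 family break it down. Retinoic acid is needed for the early development of the eye and lens, and Rarb is a textbook target of its own pathway, since its inner promoter holds such an element.

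The sequence just before the RefSeq start of Rarb is shown because that element lies in it. The 250 bases are from chr14:16575477-16575726 of GRCm38.p6, on the minus strand and read 5′ to 3′, with the direct repeat in capitals.

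Rarb: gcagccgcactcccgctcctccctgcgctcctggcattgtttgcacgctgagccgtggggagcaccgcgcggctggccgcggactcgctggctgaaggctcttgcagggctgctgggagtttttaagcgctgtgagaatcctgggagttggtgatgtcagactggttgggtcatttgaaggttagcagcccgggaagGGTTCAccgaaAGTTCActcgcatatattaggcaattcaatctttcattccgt

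The searched 6-base elements (half-sites) were the consensus AGGTCA, the variant AGTTCA, the variant GGGTCA and the variant GGTTCA, on both strands, and a direct repeat was a pair of them in the same orientation, 1, 2 or 5 bases apart. RefSeq promoter windows of 300 bases, from 250 bases before to 50 after a start, were on hand for 7 of the 9 genes, 14 windows in all, and Crabp2 and Rdh10 were not among them. Of these 14 windows, 7 held at least 1 half-site, and only that of Rarb held a direct repeat. Over all 32851 windows of the mouse genome 43.7% held a half-site, 0.588% a direct repeat with any of the 3 spacers and 0.0974% one with 5 bases between. Among 63 genes of the wider retinoid pathway (81 windows), direct repeats were found at Bco1, a carotenoid-cleaving enzyme, with 1 base between, and at Cyp26a1, the main enzyme of retinoic acid breakdown, with 5 bases between. The repeats of Rarb and Cyp26a1 are set side by side because both have the 5-base spacer and both genes are measured in FC. The element of Rarb lies at chr14:16575513-16575529 (minus strand), 53 to 37 bases before the start. That of Cyp26a1 lies at chr19:37697776-37697792, 32 to 16 bases before the start, and reads on the strand opposite to the gene (here minus). Capitals mark the half-sites.
Rarb: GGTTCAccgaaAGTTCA
Cyp26a1: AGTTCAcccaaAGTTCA
The exact pattern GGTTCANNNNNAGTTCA, taken from the repeat of Rarb, stood in 2 of the 32851 windows, that of Rarb included. These are matches of letters, and binding was not measured.

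**Figure D1:**
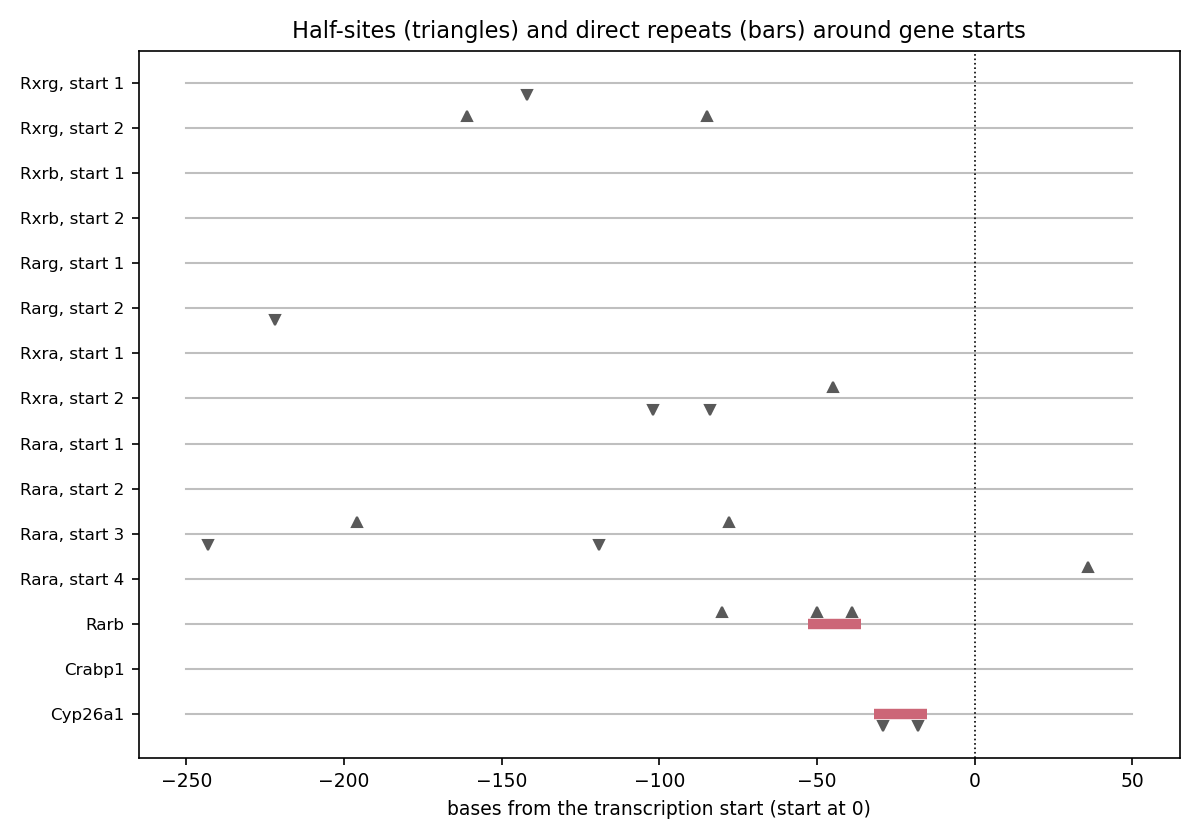
Half-sites (triangles, pointing up for the strand of the gene and down for the opposite strand) and direct repeats (bars) along 14 promoter windows of 7 receptor and handling genes and the window of Cyp26a1, with the distance from the transcription start in bases on the x axis. A direct repeat appears only at Rarb and Cyp26a1, and 7 of the 14 windows have a triangle.

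The deposited values are FPKM, a level corrected for gene length and for library depth, so that genes can be set side by side. Whole reads could be recovered from the steps of the values, and the depth was estimated at 18100000 to 23300000 fragments in a library. A gene was tested where its mean reached 1.0 FPKM in either group, which 9794 genes did, 8 of the 9 described here among them (Crabp1 did not, and Crabp2 did only in untreated Ct). Differences were tested on log2(FPKM + 0.1) with limma, with Benjamini-Hochberg adjustment over the 9794 genes. The label of the tissue was checked on markers: the summed level of 11 lens fiber markers (crystallins, Bfsp1, Bfsp2, Mip and others) was 165941 to 174721 FPKM in untreated Ct and 160447 to 170714 in CS-exposed libraries. Small amounts of other ocular RNA were present. Summed rod photoreceptor markers reached 11.8 to 32.7 FPKM in untreated Ct and 35.1 to 104 in CS-exposed libraries, and pigment epithelium markers 1.46 to 2.63 and 3.96 to 27.3, with the highest sum of both in CS-exposed replicate 3. Summed blood markers were 0.265 to 1.73 FPKM in untreated Ct and 0.50 to 22.8 in CS-exposed libraries, highest in CS-exposed replicate 4. In bulk RNA of this kind, fewer cells of a type and less RNA per cell cannot be told apart.

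In FC the summed level of the 3 RXR genes was several times that of the 3 RAR genes. Rxrg, Rxrb and Rarg led, in that order, and Rxra followed, an order that was the same in all 8 libraries. Each of these neighbours, and Rxra against Rara, differed in 8 of 8 libraries (two-sided exact sign-flip permutation test within libraries, adjusted p = 0.0125 over 8 pairs, raw p = 0.0078, the smallest that 8 libraries can give). Rara, Rarb, Rdh10 and Crabp2 made up a second tier near 1 FPKM. Rdh10 was above Crabp2 in 7 of 8 libraries, which did not pass the same exact test (adjusted p = 0.135). Rara was above Rarb in 6 of 8 libraries and Rarb above Rdh10 in 4 of 8. No p is given for these pairs because the choice of Rarb used its values, though both were among the 8 pairs adjusted over. Crabp1 came last, below Crabp2 in 8 of 8 libraries (adjusted p = 0.0125). Among all tested genes, 89.0% had a lower mean than Rxrg and 85.7% a lower mean than Rxrb, against 10.1% for Rarb and 0.950% for Crabp2.

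**Figure D2:**
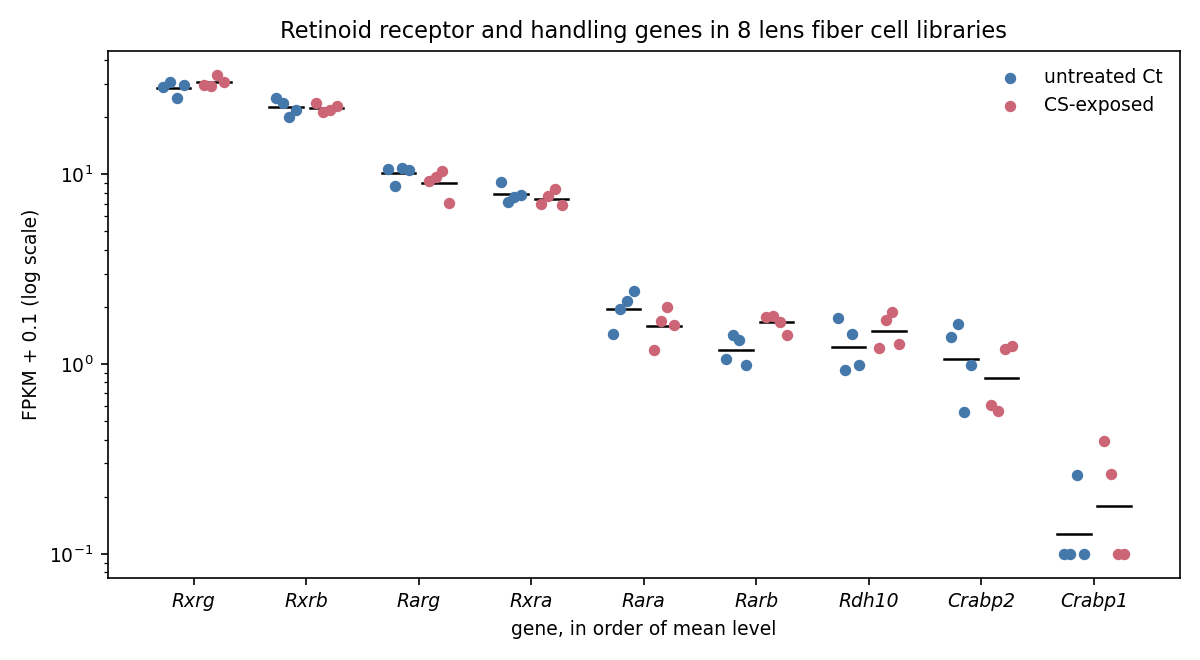
Level of the 9 genes in each library, as FPKM + 0.1 on a log axis, with untreated Ct libraries in blue, CS-exposed libraries in red and a bar at the mean of the log values of each group. Rxrg and Rxrb lie above 20 FPKM in every library, Rara, Rarb, Rdh10 and Crabp2 lie near 1, and only Rarb has groups that do not overlap.

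Rarb, the receptor that is itself induced by retinoic acid in many tissues, was measured at 0.961, 1.32, 1.23 and 0.893 FPKM in untreated Ct replicates 1 to 4 and at 1.67, 1.68, 1.57 and 1.33 FPKM in CS-exposed replicates 1 to 4. All CS-exposed libraries lay above all untreated Ct libraries, which is the property it was chosen for. The lowest CS-exposed library (replicate 4) exceeded the highest untreated Ct library (replicate 2) by 0.00679 FPKM, less than the 0.0152 FPKM that 1 read was worth in it. The means were 1.56 ± 0.166 and 1.10 ± 0.206 FPKM (SD, n = 4 each), a fold of 1.42 and a log2 difference of 0.48 (SE 0.19). Over all 9794 tested genes, 3.08% had groups that did not overlap, 1.8% with CS-exposed above and 1.29% with CS-exposed below.

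The values of Rarb rest on few reads. They amounted to 58, 79, 87 and 49 reads in the untreated Ct libraries and 107, 118, 98 and 87 in the CS-exposed libraries. Counting alone would give a coefficient of variation of 12.1% and 9.88% in the respective groups, where 18.7% and 10.6% were seen, so in CS-exposed libraries the spread was close to that of counting. The log2 difference ranged from 0.39 to 0.57 when each library was left out in turn. Beside Rarb, the summed rod markers were 28.8, 22.6, 32.7 and 11.8 FPKM in untreated Ct replicates 1 to 4. In CS-exposed replicates 1 to 4 they were 48.0, 64.8, 104 and 35.1 FPKM. Where they were highest, in CS-exposed replicate 3, Rarb (1.57 FPKM) was below 2 of the other CS-exposed libraries. Rarb and the rod sum were both lowest of their group in replicate 4 of each group. Untreated Ct replicate 2, with the highest untreated Ct value of Rarb, had a rod sum below those of replicates 1 and 3. Blood markers were highest in CS-exposed replicate 4. The part of those cells in the values of Rarb was not tested.

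Rarb (chr14:16430839-16819156, minus strand, GRCm38, positions of genes from GENCODE) shares 1793 of its 5265 exonic bases with Top2b, a DNA topoisomerase on the other strand, and 227 with the antisense gene Gm48162, which begins within the promoter stretch shown above. Whether counting used the strand is not given in the sources used here, so reads in these bases could belong to either gene of a pair. The deposited FPKM imply a length of 3034 bases for Rarb, so how many of the shared bases were counted is not known. Top2b stood at 14.0 ± 0.610 FPKM in untreated Ct and 13.6 ± 0.977 FPKM in mice exposed to CS (SD, n = 4 each). Its log2 difference was -0.04 (SE 0.07, limma adjusted p = 0.989), and the part of shared reads in the values of Rarb was not tested. The FPKM add up all transcripts of Rarb, so that those from the promoter shown above are not told from those of the outer promoter.

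**Figure D3:**
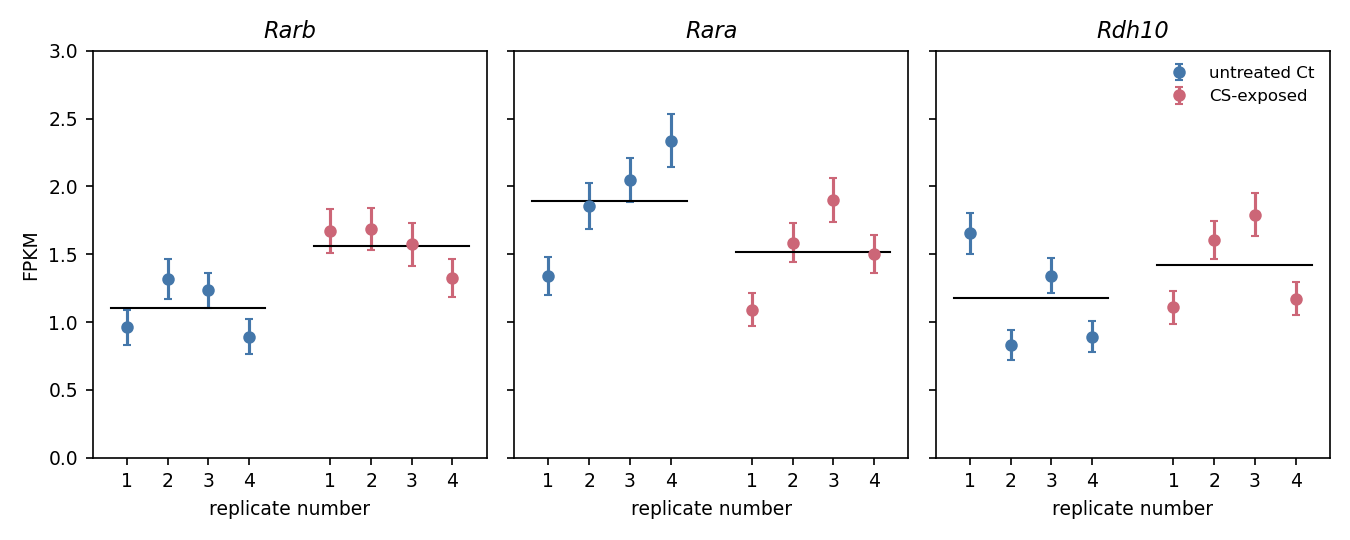
FPKM of Rarb, Rara and Rdh10 in each library by replicate number, with bars of 1 counting SD (from the recovered reads) and lines at the group means. Rarb in untreated Ct replicate 2 (1.32 FPKM) and CS-exposed replicate 4 (1.33) are level within their bars, and the groups overlap for Rara and Rdh10.

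None of the other 7 tested genes passed p under 0.05 with limma, against 4.83% of all tested genes (2.75% higher and 2.08% lower in CS-exposed mice). An adjusted p under 0.05 was reached by 0.0102% of all tested genes and by none of the 7. Of the 7, 2 had a positive and 5 a negative log2 difference. Crabp2, among the negative ones, was tested only through untreated Ct, where its mean was higher. Their median absolute log2 difference was 0.17, and that of all tested genes 0.08, with the low-level genes contributing the larger values.

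Rara (chr11:98927818-98974942), the widely expressed receptor, was at 1.34, 1.86, 2.05 and 2.34 FPKM in untreated Ct replicates 1 to 4. In CS-exposed replicates 1 to 4 it was at 1.09, 1.59, 1.90 and 1.503 FPKM. The lowest library of each group was replicate 1, and the groups overlapped. The log2 difference was -0.30 (SE 0.21, 95% interval -0.76 to 0.16, limma adjusted p = 0.956), and it lay between -0.16 (without CS-exposed replicate 1) and -0.45 (without untreated Ct replicate 1) when single libraries were left out.

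Rarg (chr15:102234938-102257517, minus strand) was the main RAR of FC, with 10.6, 8.56, 10.6 and 10.4 FPKM in untreated Ct replicates 1 to 4 and 9.13, 9.61, 10.3 and 6.93 in CS-exposed replicates 1 to 4. CS-exposed replicate 4 was lowest of all 8, and the other libraries of both groups overlapped. The log2 difference was -0.17 (SE 0.12, interval -0.44 to 0.10, limma adjusted p = 0.956), and -0.05 without CS-exposed replicate 4.

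Rarg supplied 71.0% to 82.2% of the summed RAR level in each library. The share of Rarb in that sum was 8.52% ± 2.05 in untreated Ct and 13.0% ± 1.16 in CS-exposed mice (SD, n = 4 each), and Rara was above Rarb in 4 of 4 untreated Ct but in 2 of 4 CS-exposed libraries. Both values follow in part from the choice of Rarb and were not tested. The RAR sum itself was 13.1 ± 0.977 FPKM in untreated Ct and 12.1 ± 1.74 FPKM in CS-exposed mice, with groups that overlapped. The mean RAR sum was thus not higher where Rarb was.

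Among the RXR genes, the shared partners of RAR and other nuclear receptors, Rxrg (chr1:167598384-167639623) was the most abundant. Its level was 28.8, 30.7, 25.0 and 29.5 FPKM in untreated Ct replicates 1 to 4, and 29.5, 29.1, 33.4 and 30.7 FPKM in CS-exposed replicates 1 to 4. Untreated Ct replicate 3 was lowest and CS-exposed replicate 3 highest, with the other 6 libraries between 28.8 and 30.7. The log2 difference was 0.11 (SE 0.07, interval -0.06 to 0.27, limma adjusted p = 0.956).

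Rxrb (chr17:34031812-34038399) stood at 25.3, 23.7, 20.04 and 21.6 FPKM in untreated Ct replicates 1 to 4, and at 23.8, 21.1, 21.8 and 22.9 FPKM in CS-exposed replicates 1 to 4. All CS-exposed values fell within the range of the untreated Ct values. Its log2 difference was -0.01 (SE 0.08, interval -0.18 to 0.16, limma adjusted p = 0.995), and leaving out single libraries moved it between -0.07 and 0.04, across 0.

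Rxra (chr2:27676440-27762957), the RXR with the broadest role in development, was at 8.99, 7.04, 7.53 and 7.68 FPKM in untreated Ct replicates 1 to 4 and at 6.91, 7.55, 8.24 and 6.77 FPKM in CS-exposed replicates 1 to 4. The groups overlapped, with untreated Ct replicate 1 the highest library. The log2 difference was -0.08 (SE 0.10, interval -0.30 to 0.13, limma adjusted p = 0.985).

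Summed over the 3 genes, RXR came to 59.0 ± 4.61 FPKM in untreated Ct and 60.4 ± 2.33 FPKM in mice exposed to CS (SD, n = 4 each). Rxrg made up 45.7% to 52.7% of this sum and Rxra 11.2% to 14.3%. The ratio of the RXR sum to the RAR sum was 4.55 ± 0.642 in untreated Ct and 5.08 ± 0.780 in CS-exposed mice, a difference smaller than the spread within either group.

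**Figure D4:**
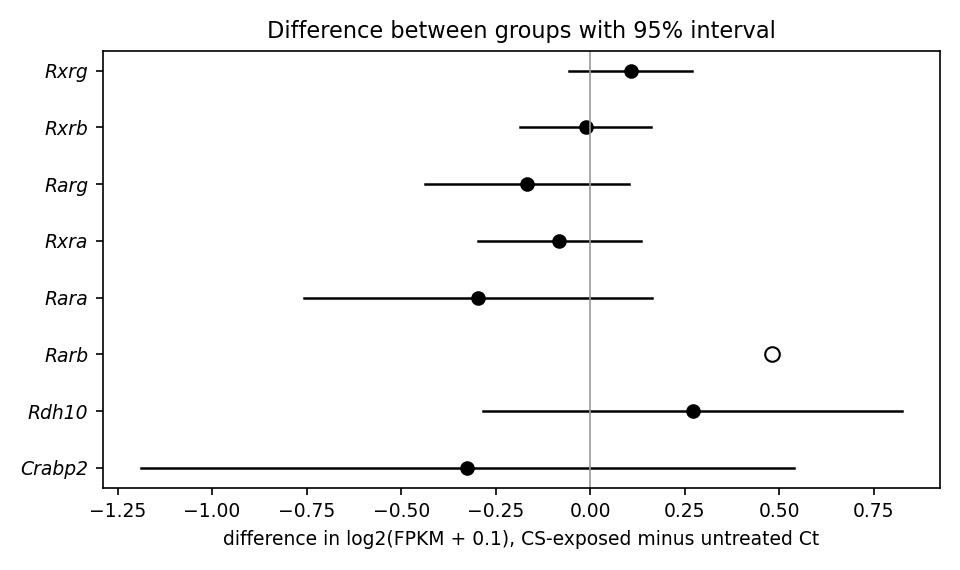
Difference in log2(FPKM + 0.1), CS-exposed minus untreated Ct, for the 8 tested genes in order of mean level, with 95% intervals from limma. Rarb, chosen for this difference, is an open circle without interval at 0.48, and the intervals of all 7 others include 0, from the narrow one of Rxrg to that of Crabp2 (-1.19 to 0.54).

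Rdh10 (chr1:16105774-16133734), which oxidizes retinol to retinaldehyde, varied from library to library more than the receptors. It was at 1.65, 0.833, 1.34 and 0.894 FPKM in untreated Ct replicates 1 to 4 and at 1.11, 1.61, 1.79 and 1.17 FPKM in CS-exposed replicates 1 to 4. The lowest 2 libraries were untreated Ct, but the groups overlapped. The log2 difference was 0.27 (SE 0.25, interval -0.28 to 0.82, limma adjusted p = 0.976).

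Crabp2 (chr3:87948666-87953376), which hands retinoic acid to RAR in the nucleus, was at 1.30, 1.52, 0.462 and 0.890 FPKM in untreated Ct replicates 1 to 4 and at 0.509, 0.465, 1.10 and 1.14 in CS-exposed replicates 1 to 4. These are 10 to 28 reads a library, and each group held both low and high libraries. The log2 difference was -0.32 (SE 0.39, interval -1.19 to 0.54, limma adjusted p = 0.985), an interval too wide to place the direction.

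Crabp1 (chr9:54764748-54773110), the other cytosolic carrier, had no read in 5 of the 8 libraries, with 3 reads in untreated Ct replicate 3, 5 in CS-exposed replicate 1 and 3 in CS-exposed replicate 2. A count of 0 allows up to 3 reads, or 0.173 to 0.207 FPKM in those libraries, for counting error only. No comparison of groups can be drawn from 3 against 8 reads in all.

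The rest of the retinoid pathway was read from 7 lists of 82 genes in all, 44 of which were tested. With limma 5 of the 44 had p under 0.05, 4 higher and 1 lower in CS-exposed mice, and none of the 5 passed the adjusted threshold. The 4 higher genes reached the minimum level only through the CS-exposed group, so they were tested because they were high there, and their count is not read against the 4.83% of all tested genes. Of the other 40 genes, which reached the minimum in both groups, 1 had p under 0.05. The 4 higher genes all belong to the visual cycle, the recycling of retinal between photoreceptors and pigment epithelium.

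Of 16 genes of retinoic acid synthesis 9 were tested and 1 had p under 0.05, a lower one, beside 4.83% of all tested genes in either direction. Aldh1a1, the retinaldehyde dehydrogenase and lens-abundant detoxifying enzyme, was the highest at 86.0 ± 11.7 FPKM in untreated Ct and 75.8 ± 7.47 FPKM in CS-exposed mice (log2 difference -0.18, SE 0.10, limma adjusted p = 0.956). Adh5, a class III alcohol dehydrogenase better known for clearing formaldehyde, was at 23.1, 27.0, 27.4 and 25.9 FPKM in untreated Ct replicates 1 to 4 and at 21.0, 20.9, 21.4 and 22.9 FPKM in CS-exposed replicates 1 to 4. All CS-exposed libraries lay below all untreated Ct libraries. The log2 difference of Adh5 was -0.26 (SE 0.07, limma p = 0.0029, adjusted p = 0.956), it had p under 0.05 in all 19 alternative settings, and the two-sided exact permutation p was 0.0286, the smallest that 4 against 4 allows. Dhrs4, a retinal reductase, was at 6.58 ± 0.684 and 8.03 ± 1.55 FPKM (limma adjusted p = 0.956).

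Of 8 genes that take up, bind and store retinol 3 were tested, and of 3 that break down retinoic acid 2 were tested. With limma 0 of these 5 had p under 0.05, beside 4.83% of all tested genes, so the count says little. Fabp5, a fatty acid binding protein that can also carry retinoic acid, was very high at 1822 ± 65.3 FPKM in untreated Ct and 1881 ± 62.1 FPKM in CS-exposed mice. Dgat1, which can esterify retinol, was at 3.01 ± 0.477 and 2.60 ± 0.318 FPKM. Cyp26a1, the gene with the repeat shown above, was at 6.75, 11.0, 10.2 and 10.8 FPKM in untreated Ct replicates 1 to 4 and at 6.98, 9.09, 11.1 and 8.94 FPKM in CS-exposed replicates 1 to 4. Replicate 1 was lowest in both groups, and the groups overlapped, with a log2 difference of -0.10 (SE 0.17, interval -0.46 to 0.27, limma adjusted p = 0.985). Cyp26c1 was at 1.69 ± 0.962 and 1.10 ± 0.290 FPKM.

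All 19 coregulators of retinoid receptors were tested and 0 had p under 0.05 with limma, beside 4.83% of all tested genes, a share at which a count of 0 in a list of this or a smaller size says little. Trim24, a coactivator that binds RAR, was the highest at 18.2 ± 1.22 FPKM in untreated Ct and 19.0 ± 0.782 in CS-exposed mice. Prmt1, a histone methyltransferase, was at 13.6 ± 1.45 and 14.0 ± 0.981 FPKM, and Tbl1x, a part of the corepressor complex, at 12.3 ± 0.791 and 12.4 ± 0.372 FPKM.

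Of 13 other nuclear receptors that pair with RXR 4 were tested and 0 had p under 0.05 (4.83% of all tested genes). Thra, a thyroid hormone receptor, was at 24.7 ± 0.688 FPKM in untreated Ct and 24.2 ± 0.660 FPKM in CS-exposed mice. Nr1h2, an oxysterol receptor, was at 9.99 ± 0.224 and 9.01 ± 1.04 FPKM, and Ppard, a fatty acid receptor, at 2.78 ± 0.30 and 3.13 ± 0.314 FPKM.

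Among 22 genes known as targets of retinoic acid 6 were tested and 0 had p under 0.05, and 6 others were at 0 in every library. Besides Cyp26a1, which was given above, Btg2, an antiproliferative factor, was at 6.78 ± 0.769 FPKM in untreated Ct and 7.20 ± 1.28 FPKM in CS-exposed mice. The tested targets had a median log2 difference of -0.01, with 2 of 6 positive. With 4.83% of all tested genes called, 0 of 6 is no result about the targets.

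Of 9 visual cycle genes 5 were tested, and 4 had p under 0.05, all with higher values in CS-exposed mice and all with an untreated Ct mean below the minimum. The same 4 had p under 0.05 when no minimum was set. Rpe65, the isomerase of the pigment epithelium, was at 0.0314 to 0.188 FPKM in untreated Ct and at 0.799, 0.865, 3.31 and 0.289 FPKM in CS-exposed replicates 1 to 4 (log2 difference 2.34, SE 0.65, limma p = 0.0039, exact permutation p = 0.0286). Rgr, a retinal G protein-coupled receptor, went from 0.373 ± 0.111 to 2.24 ± 2.29 FPKM (log2 difference 1.85, SE 0.55, limma p = 0.0061, exact permutation p = 0.0286). Rlbp1, a retinaldehyde binding protein, went from 0.237 ± 0.120 to 1.32 ± 1.43 FPKM (log2 difference 1.70, SE 0.62, limma p = 0.018, exact permutation p = 0.0571). Rbp3, which shuttles retinoids between retinal cells, went from 0.383 ± 0.0641 to 1.10 ± 0.710 FPKM (log2 difference 1.16, SE 0.39, limma p = 0.012, exact permutation p = 0.0286). Each had an adjusted p of 0.956, and CS-exposed replicate 3 was the highest library for all 4. As these genes entered the test only through the CS-exposed group, their p are descriptions. An exact p of 0.0286 is the smallest that 4 against 4 allows. Over the alternative settings in which they were tested, the log2 difference ran from 0.90 to 3.11 for Rpe65 and 1.01 to 2.33 for Rgr. For Rlbp1 it ran from 0.75 to 2.12 and for Rbp3 from 0.55 to 1.38. Abca4, a transporter of rod outer segments, was at 1.67 ± 0.304 and 1.74 ± 0.213 FPKM and did not pass.

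The markers of other ocular cells are set beside these 4 genes. Of 10 tested rod markers 9 had p under 0.05 with higher values in CS-exposed mice, and none passed the adjusted threshold. As 5 of the 9 reached the minimum only through the CS-exposed group, the count given is 4 of the 5 that reached it in both groups. It stands beside 2.75% of all tested genes, and Gnat1 (7.03 ± 3.71 and 21.5 ± 11.0 FPKM) is among the 4. The list was chosen with earlier results of these data known, so this count is a description. Of the pigment epithelium markers 4 were tested, each only through the CS-exposed group, so their calls are not counted here, and 3 of them are visual cycle genes themselves. The pigment epithelium marker Best1 was at 0 in every library. The summed visual cycle level was 3.04 to 3.88 FPKM in untreated Ct and 5.05 to 18.3 FPKM in CS-exposed libraries, with 18.3 in CS-exposed replicate 3. Without that library Rpe65, Rlbp1 and Rbp3 fell under the minimum level and were not tested, and 3 pathway genes had p under 0.05 (Adh5, Dhrs4 and Rgr). The part of retinal tissue in these values was not tested.

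**Figure D5:**
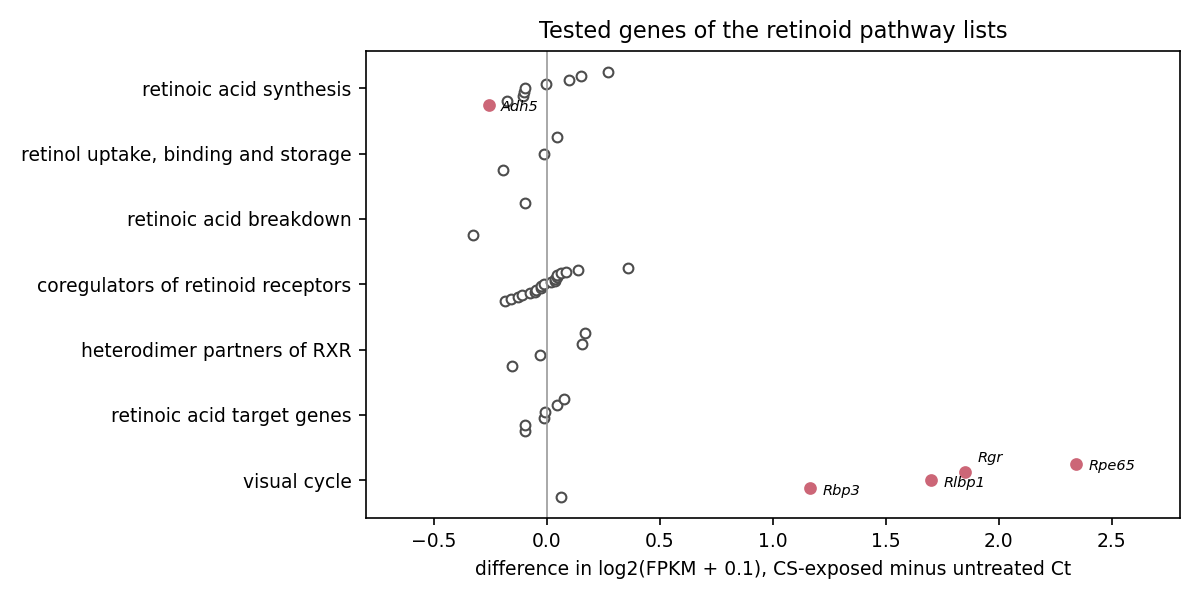
Difference in log2(FPKM + 0.1), CS-exposed minus untreated Ct, of each tested gene in 7 retinoid pathway lists (rows), with genes of limma p under 0.05 filled and named. Some genes, such as Cyp26a1, stand in 2 lists. The filled points to the right are 4 visual cycle genes at 1.16 to 2.34, tested only through the CS-exposed group. Adh5 lies at -0.26.

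Markers of the lens epithelium were also measured in the dissected FC. The summed lens epithelium markers were 179 to 240 FPKM in untreated Ct and 170 to 199 in CS-exposed libraries, and 0 of 8 tested had p under 0.05 with limma (4.83% of all tested genes). Foxe3, a lens epithelial transcription factor, was highest in untreated Ct replicate 3 at 64.0 FPKM, against 17.5 to 34.8 in the other 7. In that library Rxrg, Rxrb and Crabp2 had their lowest untreated Ct values, and Crabp1 had its only reads of that group. Rarg was at 10.63 FPKM there, level with untreated Ct replicate 1 at 10.61 FPKM. The part of epithelial RNA in them was not tested.

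The pattern of Rarb over the 8 libraries was most like that of Pcgf5, a Polycomb group ring finger gene, with a Pearson r of 0.978 on log2(FPKM + 0.1). Pcgf5 was at 1.03, 1.36, 1.32 and 1.06 FPKM in untreated Ct replicates 1 to 4 and at 1.60, 1.58, 1.65 and 1.33 FPKM in CS-exposed replicates 1 to 4. Next came Ccdc23 (r = 0.939), BC003331 (0.937), Fut11, a fucosyltransferase (0.934), and Gm15246 (0.932). All 5 share the libraries and the group difference with Rarb and were picked from 9794 genes, so the correlations are descriptions. Within the retinoid genes, r with Rarb ran from -0.42 for Rxra to 0.28 for Rdh10 over the same 8 libraries.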

How the data were processed

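Lens FC RNA of 8 pools was sequenced, 4 CS-exposed and 4 untreated Ct, with groups and replicate numbers taken from the sample titles. The deposited FPKM were made by the authors, whose processing notes name STAR 2.5, HTSeq 0.6.1, DESeq2 and GRCm38. The library kit was NEB Next Ultra RNA. The annotation release and the use of strand in counting are not given in the sources used here. The authors' own fold changes and p-values were deposited too and were not used, and the group mean FPKM were left aside. The 4 pools of a group hold different mice, so they are biological replicates.

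The 9794 genes whose mean reached 1.0 FPKM in 1 or both groups entered the test, which used limma 3.58.1 in R 4.3.3 (lmFit, eBayes with trend, two-sided, Benjamini-Hochberg) on log2(FPKM + 0.1), a scale that understates the change of low genes. Levels of neighbouring genes were compared with an exact sign-flip permutation test within libraries. Whole reads were recovered from the FPKM steps for 99.8% of tested genes (tolerance 0.05 reads), with a median of 313 reads a value. The fit was tested on simulated data. The retinoid genes and the pathway and marker lists were chosen with earlier results of these data known. Named from the lists were genes with p under 0.05 and the 3 of highest mean in each list (some are not reported here), and, for likeness to Rarb, the 5 highest correlations. Bco1, Top2b, Gm48162, Best1 and Foxe3 were named after their values or matches were seen. Gene positions are from GENCODE M21 and promoters from RefSeq on GRCm38.p6. Python 3.11.15, numpy 2.4.6, pandas 2.3.3, scipy 1.17.1 and matplotlib 3.10.9 were used. Other pseudocounts, minimum levels, scalings, eBayes settings, a replicate block, limma-voom on recovered reads and leaving out each library were the alternatives.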

Additional observations from a re-analysis of the deposited data

Results flagged for a closer look

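In the 18 sets of 4 values (9 genes in both groups), 2 had a library far from the other 3 by Dixon's test, where chance gives about 1 in 20, or 0.9. Rarg in untreated Ct replicate 2 was at 8.56 FPKM, below the other 3 at 10.4 to 10.6 FPKM. Crabp1 in untreated Ct replicate 3 was at 0.161 FPKM, a value of 3 reads, where the other 3 libraries were at 0. With 3 libraries at 0, any other value stands apart, so the share by chance does not apply to Crabp1.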

How the results depend on the processing

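Of the retinoid genes other than Rarb, 0 had p under 0.05 in any of the 19 alternatives, in which 4 (minimum of 5 FPKM) to 8 (no minimum) of them were tested. Recomputed for single genes other than Rarb, 124 log2 differences kept their direction and stayed short of the threshold, and 4, all of Rxrb near 0, changed sign when a library was left out (range -0.069 to 0.042). Left-out single libraries moved Rara between -0.45 and -0.16, Rarg between -0.24 and -0.05, Rxra between -0.14 and -0.01, Rxrg between 0.05 and 0.14, Rdh10 between 0.13 and 0.44 and Crabp2 between -0.63 and -0.13. The difference of Rarb, whose sign its choice fixes, ranged from 0.29 (pseudocount 1) to 0.57. With no minimum FPKM, 862 genes had p under 0.05, 0 an adjusted p under 0.05, and 476 had groups that did not overlap. With a minimum of 5 FPKM these were 226 genes by p and 133 by overlap, with 1 pathway gene called, since fewer genes were tested. Genes with an adjusted p under 0.05 numbered 0 by eBayes without trend and 2 by limma-voom. Leaving out each library gave 418 to 525 genes by p and 0 to 1 by adjusted p (0 without untreated Ct replicate 4). It gave 3 to 7 pathway genes (3 without CS-exposed replicate 3) and 539 to 611 genes without overlap (fewer libraries being compared). Differing neighbours in the order of levels numbered 5 to 6, a count that includes the pairs with Rarb and is not read for them. Calls by p were 204 lower and 269 higher, but 286 lower and 220 higher without CS-exposed replicate 3.

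The replicate numbers were not taken to pair the libraries, since deviations of same-numbered libraries correlated at only 0.012, 0.078, 0.111 and 0.161 and not every library correlated best with its own number. With the replicate number as a block, 522 genes had p under 0.05, 5 an adjusted p under 0.05, 0 of the 7 retinoid genes and 6 pathway genes (Aldh1a1 added).

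Few reads limit Rarb, Rdh10, Crabp2 and Crabp1, and pools hide the spread between animals.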
